A study of Rattus norvegicus with 16 samples.

Results

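The lungs of male Sprague-Dawley rats that had lived in low oxygen while receiving estradiol and an estrogen receptor blocker were compared with the lungs of rats kept in normal air. Group membership was taken from the sample titles, which placed 4 arrays in the hypoxia, estrogen and fulvestrant group and 4 in the normoxia group, 8 of the 16 arrays of the series, with 1 array per rat. The rats of the first group carried an osmotic pump under the skin that released 17β-estradiol at 75 µg/kg/day for 3 weeks, and were injected under the skin each day with fulvestrant, which blocks the nuclear estrogen receptors, at 3 mg/kg/day. After a recovery period they spent 2 weeks in a hypobaric chamber held at 362 mmHg, which corresponds to an inspired oxygen of 10%. The normoxia rats had neither drug nor low oxygen, and the labels do not say whether they had a pump or injections without drug. The comparison therefore differs in oxygen, estradiol and fulvestrant at once, and the series has no normoxic group with the drugs. The remaining groups were 4 rats in hypoxia without drug and 4 in hypoxia with the same estradiol pump but no fulvestrant. The tissue was whole right lung, flushed of blood through the pulmonary artery, so a change in the number of cells of a type and a change in RNA per cell cannot be told apart.

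Chronic low oxygen is a standard way of producing pulmonary hypertension in rats. Pulmonary arteries constrict when oxygen falls, and over weeks their muscular coat thickens and extends into small vessels that normally lack muscle, while the right side of the heart works against a higher pressure. Cells sense oxygen through hypoxia-inducible factors, which turn on genes of glycolysis, iron handling and vessel growth. Estradiol acts through the nuclear receptors encoded by Esr1 and Esr2 and through the membrane receptor encoded by Gper1, and fulvestrant binds the nuclear receptors in its place and promotes the breakdown of the alpha receptor. The title of the series asks whether estrogen receptors carry an effect of estradiol on the lung in this model.

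Signals were log2 values, on which a difference of 1 is 2-fold, for 14506 genes. Any 2 of the 8 arrays correlated across genes with a Pearson r of 0.989 to 0.996. The SD over the 4 rats had a median, taken over genes, of 0.107 in normoxia and 0.0917 in the fulvestrant group. The lung genes Sftpc (13.97 in normoxia, 13.91 in the fulvestrant group) and Scgb1a1 (13.76 and 13.79) were near the top of the scale in both groups. Normoxia replicate 4 has a title that says normoxia and a treatment field that says hypoxia. It was kept as normoxia. On the first principal component, which held 22.1% of the variance, its score was -19.7, within the range of the normoxia arrays (-20.8 to -12.0) and outside that of the 12 hypoxic arrays (-2.0 to 16.3). Estradiol replicates 2 and 3 stood apart on the second component (-25.4 and -22.3, with 17.4% of the variance), where the other 14 arrays lay between -5.2 and 7.9. No batch is recorded and samples were submitted group by group, so a batch and a group cannot be told apart.

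In the rats given estradiol and fulvestrant in hypoxia, 430 of the 14506 genes differed from normoxia at a limma adjusted p under 0.05 (2.96%), of which 286 were higher (1.97%) and 144 lower (0.993%). Most differences were small: the median size among the 430 was 0.47 on the log2 scale, 151 genes (1.04%) differed at least 1.5-fold and 42 at least 2-fold, 31 of them higher and 11 lower. In 420 of the 430 the 4 arrays of one group did not overlap the 4 of the other, against 1790 of all genes (12.3%). The 430 were chosen by p-value on the same arrays, which favours groups that do not overlap, so this is no separate support. Leaving out 1 array at a time left between 238 genes (without normoxia replicate 1) and 374 (without normoxia replicate 3). The count was 246 without fulvestrant replicate 3 and 258 without fulvestrant replicate 4, and 202 genes passed in all 8 such fits. Without normoxia replicate 4 there were 300, and with that array counted as hypoxia, as its treatment field has it, 100 genes passed, 93 of them among the 430. The p-values set each difference against the spread between rats within a group. The fit pooled that spread over every group of the series, so the rats in hypoxia without drug and with estradiol alone also entered it.

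Among probe sets with a single gene symbol the largest rise was that of Ntrk2 (probe set 10797089); probe set 10857155, which has no symbol here, rose more (log2 5.61). Ntrk2 encodes TrkB, a tyrosine kinase receptor of neurotrophins. Its log2 signal was 7.48, 8.04, 7.10 and 7.95 in the normoxia rats and 11.24, 11.41, 11.24 and 11.24 in the fulvestrant rats. All 4 treated lungs stood more than 3 log2 units above the highest normoxic lung, and the mean went from 7.64 ± 0.44 to 11.28 ± 0.09 (SD, n = 4), a 12.4-fold rise (log2 3.64, SE 0.16, limma adjusted p = 3.55e-09). Slc26a10, a member of a family of anion exchangers, was at 6.73, 6.65, 6.54 and 6.47 in normoxia and 8.90, 8.43, 8.74 and 8.59 in the fulvestrant group, a 4.19-fold rise (log2 2.07, SE 0.11, limma adjusted p = 3.57e-08). Its groups were tight and lay far apart. Rbp7, an intracellular retinoid-binding protein, rose less evenly: 3 of the treated rats read 7.56, 7.70 and 7.46 and replicate 2 read 8.75, all above the normoxic range of 5.58 to 6.18 (log2 2.03, SE 0.37, limma adjusted p = 0.0054).

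Lypd1, a membrane protein of the Ly6 family, went from 7.02, 6.77, 7.17 and 7.10 to 8.79, 8.99, 8.97 and 9.14 (log2 1.96, SE 0.14). Amd1, the decarboxylase that supplies the propylamine groups of polyamines, rose from 9.24, 9.25, 9.24 and 9.48 to 10.86, 11.32, 11.27 and 11.04 (log2 1.82, SE 0.22). Neither gene overlapped between the groups. The other members of the 10 largest rises were Or51e1, a G protein-coupled receptor of the olfactory family (log2 1.75), the secreted Wnt antagonist Frzb (1.72), Ecel1, a membrane peptidase related to endothelin-converting enzyme (1.66), the mitochondrial protein Mgarp (1.63) and the kininogen gene Kng2 (1.51). Frzb varied in normoxia (7.53 to 8.50) and not enough to reach the treated rats (9.34 to 10.05), and Ecel1 read 7.46 in fulvestrant replicate 2 against 8.46 to 8.58 in the other treated rats. Across the 10 genes limma's adjusted p ran from 3.55e-09 to 0.0054, and each passed whichever 1 array was left out.

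Cyp1a1, a cytochrome P450 of xenobiotic and estrogen metabolism that dioxin-like compounds induce (probe set 10910376), fell the most among these genes. It read 10.10, 10.84, 10.49 and 10.67 in normoxia and 7.36, 6.31, 5.50 and 7.46 in the fulvestrant rats. Every treated lung was far below every normoxic one, but the treated lungs also spread over nearly 2 log2 units, and the mean fell from 10.52 ± 0.32 to 6.66 ± 0.93 (SD, n = 4), 14.6-fold (log2 -3.87, SE 0.58, limma adjusted p = 0.00117). Lyve1, which binds hyaluronan on lymphatic vessels and some macrophages, was far more uniform: 12.87, 12.57, 12.63 and 12.48 against 10.62, 10.36, 10.57 and 10.44, 4.40-fold lower (log2 -2.14, SE 0.12, limma adjusted p = 4.47e-08).

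Abcb1b, a drug efflux pump, fell from 11.94, 10.57, 11.54 and 10.62 to 9.71, 9.22, 9.01 and 8.23 (log2 -2.12, SE 0.43). Its normoxia rats formed a high and a lower pair, and the treated rats lay below both. Receptors and an enzyme that carry or limit vasodilator signals fell as well. Npr3, which clears natriuretic peptides, went from 10.61, 9.94, 10.23 and 9.90 to 8.28, 8.33, 8.45 and 8.88 (log2 -1.68, SE 0.24). Vipr1, a receptor for the vasodilator vasoactive intestinal peptide, went from 12.37, 12.03, 12.12 and 12.40 to 10.97, 10.66, 10.26 and 10.38 (log2 -1.66, SE 0.20). Hpgd, which inactivates prostaglandins in the lung, went from 10.74, 11.07, 10.68 and 10.79 to 9.26, 9.36, 9.80 and 9.33 (log2 -1.38, SE 0.18). None of these overlapped between groups. The Notch ligand of endothelial tip cells Dll4 (-1.21), the glutamate receptor auxiliary subunit Cacng3 (-1.17), the Wnt receptor Fzd8 (-1.09) and the disulfide isomerase Pdia5 (-1.03) completed the 10 largest falls, with limma adjusted p from 4.47e-08 (Lyve1) to 0.0113 (Abcb1b). When normoxia replicate 4 was taken as a hypoxia array, 9 of these 20 genes still passed: Ntrk2, Slc26a10, Lypd1, Amd1, Frzb, Lyve1, Npr3, Dll4 and Cacng3. A call lost there did not always go with a smaller difference: Or51e1 was at 1.83 (limma adjusted p = 0.0724), against 1.75 as reported.

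**Figure D1:**
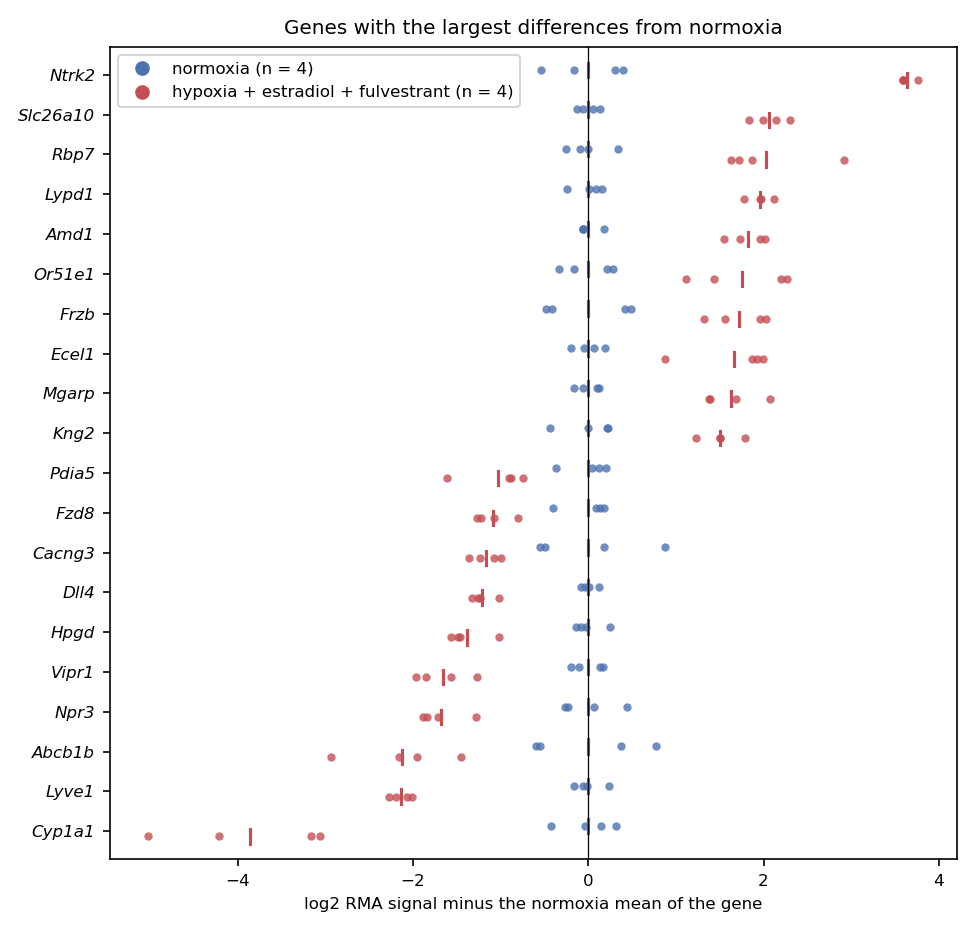
The log2 RMA signal of each rat, minus the normoxia mean of the gene, for the 10 genes with the largest rise and the 10 with the largest fall; blue points are the 4 normoxia rats, red points the 4 rats with hypoxia, estradiol and fulvestrant, and bars the group means. The groups do not overlap for any of the 20 genes, which was a condition for choosing them, and Cyp1a1 has the widest spread among treated rats.

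Of 18 measured contractile genes of smooth muscle, 10 rose (55.6%), 0 fell and 8 did not pass, where 1.97% of all genes were higher, and the median difference was 0.51 on the log2 scale against 0.0043 over all genes. Des, the intermediate filament of muscle cells, read 11.03, 11.16, 11.21 and 11.54 in normoxia and 12.13, 12.13, 12.20 and 12.47 in the fulvestrant rats (1.99-fold, log2 0.99, SE 0.11, limma adjusted p = 0.000105). Actg2, the gamma actin of smooth muscle, went from 10.88, 11.32, 11.32 and 11.44 to 11.81, 12.03, 12.17 and 12.65 (1.90-fold, log2 0.93, SE 0.16, limma adjusted p = 0.00271). Cnn1, an actin-binding brake on contraction, went from 10.26, 10.61, 10.47 and 10.66 to 11.25, 11.21, 11.41 and 11.67 (1.85-fold, log2 0.88, SE 0.11, limma adjusted p = 0.000312). In each of these genes the lowest treated rat was above the highest normoxia rat.

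The other 7 were Kcnmb1, the beta subunit of the large calcium-activated potassium channel (log2 0.86), the actin-binding protein Smtn (0.73), tropomyosin Tpm2 (0.70), the myosin light chain Myl9 (0.70), Tagln (0.47), caldesmon Cald1 (0.43) and the alpha actin Acta2 (0.33). Acta2, already among the brightest genes of the lung, moved least: 13.16, 13.32, 13.33 and 13.36 in normoxia and 13.57, 13.56, 13.60 and 13.75 in the fulvestrant rats (SE 0.06, limma adjusted p = 0.00763). The smooth muscle myosin Myh11 (0.43), the co-activator Myocd (0.56), Lmod1 (0.37), Tpm1 (0.28) and Pln (0.97) did not pass, nor did Mylk (-0.07), Ldb3 (-0.15) and Synm (-0.21). All 10 rises passed whichever 1 of the 8 arrays was left out, and 9 of the 10 with normoxia replicate 4 taken as hypoxic. Without estradiol replicates 2 and 3, which stood apart, the count was 10.

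**Figure D2:**
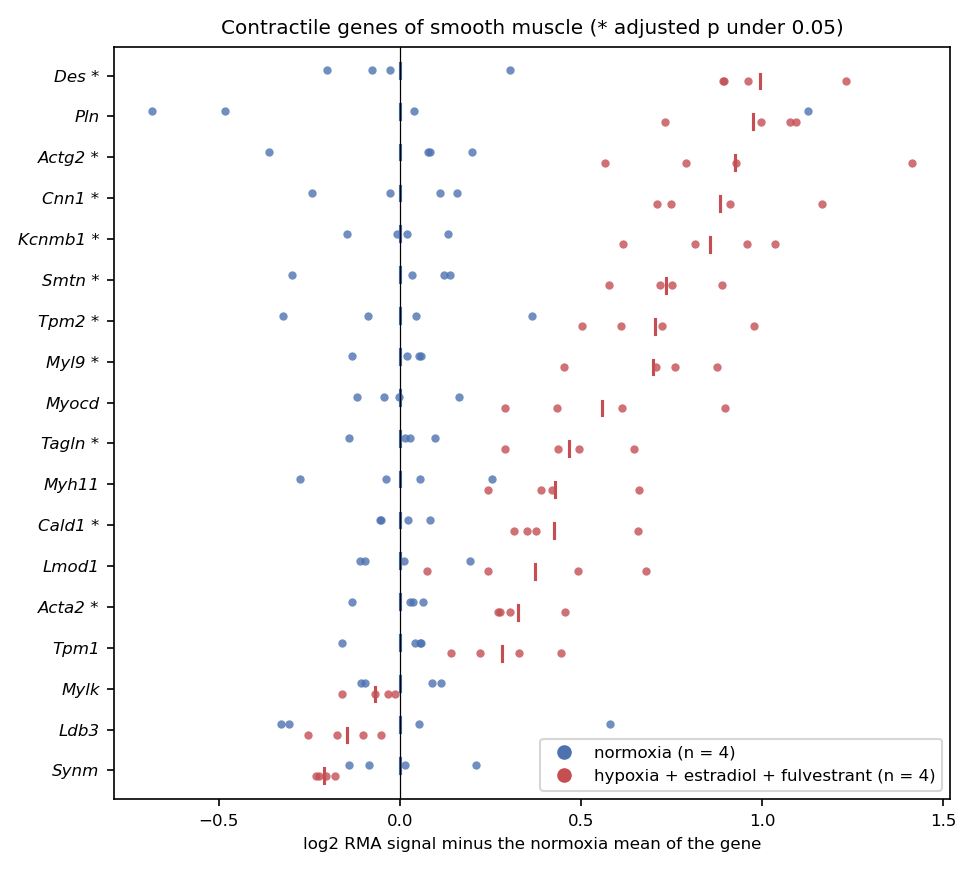
The log2 RMA signal of each rat, minus the normoxia mean of the gene, for the 18 measured contractile genes of smooth muscle; blue points are the 4 normoxia rats, red points the 4 rats with hypoxia, estradiol and fulvestrant, bars the group means, and an asterisk an adjusted p under 0.05. The 10 marked genes lie 0.33 to 0.99 above normoxia, and Pln has 1 normoxia rat among the treated ones.

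Heart muscle shares Des and Pln with smooth muscle. Of 11 heart muscle genes 0 passed, with a median of -0.84, and the mean of the list per array was between -0.93 and 1.49 in normoxia and between -0.79 and -0.52 in the fulvestrant group. The 2 high normoxia arrays were replicate 3 (0.38) and replicate 4 (1.49), and in the fulvestrant group the list lay below both. The part of heart tissue in these samples was not tested, and without normoxia replicate 4 there were 11 smooth muscle genes past. For pericytes, the contractile cells of capillaries, 2 of 13 genes rose (15.4% past, against 2.96% of all genes). They were Trpc6 (log2 0.78) and Cspg4 (0.34). Cspg4 passed in none of the 8 fits that left out 1 array (adjusted p up to 0.104). For fibroblasts, 0 of 12 genes passed, with a median of -0.03.

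Serum response factor, with the co-activator encoded by Myocd, controls many contractile genes through a short element known as the CArG box, so the promoters of the list were read from RefSeq (GRCr8; 250 bases before the start). The box was searched on both strands as CCNNNNNNGG with at most 1 C or G among the middle bases, a form chosen after the strict one, with none, had been tried. It was found in 2 of 13 promoters of the list (15.4%), those of Acta2 and Ldb3, and in 7.97% of all 27457 promoters; the strict form was in 1 of 13 (7.69%) and in 1.5% of all. Of the 8 promoters of genes that rose, 1 held the looser form and 0 the strict one. The stretch of the Acta2 promoter is shown because it holds 2 boxes, in capitals, at chr1:241172558-241172657 on the minus strand, beginning at positions -134 and -84 from the start.
Acta2: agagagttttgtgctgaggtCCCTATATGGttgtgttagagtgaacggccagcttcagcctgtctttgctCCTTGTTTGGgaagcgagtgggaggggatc

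Of 35 genes of the extracellular matrix, 3 rose and 1 fell (11.4% past, against 2.96% of all genes), with a median of 0.18. Plod2, which hydroxylates collagen for cross-linking, rose from 8.78, 9.34, 9.52 and 9.08 to 9.91, 9.93, 9.95 and 9.88 (log2 0.73, SE 0.11, limma adjusted p = 0.00145). The treated rats were almost identical and all above normoxia. Ccn2, a matrix-associated growth regulator, rose by 0.59 and the basement membrane collagen Col4a1 by 0.46, while the matrix protein Fbln2 fell by 0.64 (limma adjusted p = 0.0343). Fbln2 kept its call only where normoxia replicate 1 was left out (adjusted p up to 0.110), and Ccn2 lost its own without fulvestrant replicate 3, normoxia replicate 1 or normoxia replicate 2 (up to 0.0571). The fibrillar collagen genes Col1a1 (0.20), Col1a2 (0.13) and Col3a1 (-0.03) did not pass.

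Of 21 genes of glucose uptake, glycolysis and lactate export, 5 rose (23.8%, against 1.97% of all genes higher) and 0 fell. In 19 the difference was above 0, and the median was 0.25. The brain-type aldolase Aldoc went from 8.23, 8.22, 8.33 and 8.49 to 9.12, 9.70, 9.23 and 9.21 (log2 0.998, SE 0.16, limma adjusted p = 0.00194). The triose phosphate isomerase gene Tpi1 went from 10.36, 10.52, 10.75 and 10.73 to 11.12, 11.32, 11.46 and 11.43 (log2 0.74, SE 0.12). Pfkl, a subunit of phosphofructokinase, went from 9.93, 9.90, 10.10 and 10.24 to 10.51, 10.64, 10.61 and 10.60 (log2 0.55, SE 0.08). None of these 3 overlapped between the groups. The lactate dehydrogenase gene Ldha (0.35, limma adjusted p = 0.0176) and the enolase gene Eno1 (0.32) also passed, and the glucose transporter Slc2a1 (0.44, limma adjusted p = 0.0778) and the lactate exporter Slc16a3 (0.67) did not. The count was 3 without normoxia replicate 1 or 2 or without fulvestrant replicate 2, 3 or 4, and 6 without fulvestrant replicate 1. It was 1 with normoxia replicate 4 taken as hypoxic and 8 without estradiol replicates 2 and 3.

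The core of the element that hypoxia-inducible factors bind is ACGTG. Searched on both strands in the 250 bases before the start, it was in 8 of 19 promoters of the glycolysis list (42.1%), in 16.9% of all promoters and in 19.5% of those of the genes tested. Of the 5 genes that rose, Aldoc and Ldha held it. These stretches are shown with the core in capitals, together with that of Slc2a1, a textbook target that did not pass: Aldoc at chr10:63715493-63715537 and Ldha at chr1:106507985-106508043, on the plus strand, and Slc2a1 at chr5:138002451-138002495, also on the plus strand. In Ldha a palindrome gives 2 overlapping matches and a further match follows on the opposite strand.
Aldoc: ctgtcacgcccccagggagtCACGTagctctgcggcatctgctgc
Ldha: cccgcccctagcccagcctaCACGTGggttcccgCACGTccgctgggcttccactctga
Slc2a1: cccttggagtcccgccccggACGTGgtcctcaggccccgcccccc

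Of 33 targets of hypoxia-inducible factors, a list that shares members with glycolysis, 2 rose and 0 fell (6.06%, against 1.97% of all genes higher), with a median of 0.14. They were Aldoc and Bnip3, a gene of mitophagy, which read 11.07, 10.71, 11.02 and 11.01 in normoxia and 11.52, 11.62, 11.55 and 11.51 in the fulvestrant rats (log2 0.59, SE 0.09, limma adjusted p = 0.00139). A second probe set of Bnip3 gave 0.59 as well. Vegfa, the main vascular growth factor, was at 12.39 ± 0.08 and 12.32 ± 0.07 (SD, n = 4; log2 -0.07, limma adjusted p = 0.68). Among 10 oxygen-sensing genes Hif1a was higher by 0.25 (limma adjusted p = 0.0398) and Epas1, which encodes the related factor of endothelium, lower (log2 -0.25, limma adjusted p = 0.0237). Both had groups that did not overlap, but Hif1a kept its call only where normoxia replicate 2 was left out (adjusted p up to 0.128) and Epas1 lost its own without fulvestrant replicate 3 or 4 or normoxia replicate 1 or 2 (up to 0.0866). Of 24 genes of oxidative phosphorylation 0 passed, with a median of 0.03.

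Endothelial genes moved both ways. Of 14 general endothelial genes 3 rose and 2 fell (35.7% past, against 2.96% of all genes), with a median of -0.01. Emcn, a sialomucin of capillary and venous endothelium, rose from 11.37, 11.70, 11.47 and 11.32 to 12.19, 12.25, 12.23 and 12.18 (log2 0.75, SE 0.09, limma adjusted p = 0.000306). The guidance receptor Robo4 rose by 0.74 and the secreted factor Egfl7 by 0.73, and the treated rats lay above all normoxia rats in both. The members that fell were Clec14a (-0.65) and the vascular growth factor receptor Flt1 (-0.39). Of the 14 capillary genes, 3 rose and 4 fell, among them Scn7a, a sodium channel (0.99), Hpgd (-1.38) and Plvap, the diaphragm protein of fenestrae and caveolae. Plvap read 12.91, 12.75, 12.77 and 12.70 in normoxia and 12.05, 11.92, 11.85 and 11.96 in the fulvestrant rats (log2 -0.84, SE 0.08, limma adjusted p = 3.19e-05). Of 8 lymphatic genes 3 rose and Lyve1 fell. Ccl21, the chemokine by which lymphatic vessels attract T cells and dendritic cells, went from 11.07, 10.87, 11.39 and 11.28 to 12.12, 12.21, 12.47 and 12.18 (log2 1.09, SE 0.13, limma adjusted p = 0.000136). Thy1 (0.58) kept its call only where fulvestrant replicate 2 or normoxia replicate 4 was left out (adjusted p up to 0.140). The lymphatic transcription factor Prox1 (0.39, limma adjusted p = 0.103) did not pass. Neither did Pdpn (-0.05), which is also a member of the alveolar type 1 list and so is not particular to lymphatic vessels.

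Bone morphogenetic protein (BMP) signalling restrains growth of vascular muscle, and loss of its receptor gene Bmpr2 causes inherited pulmonary hypertension. Of 27 genes 3 rose and 2 fell (18.5% past, against 2.96% of all genes). The ligand Bmp2 went from 7.64, 7.97, 7.76 and 7.63 to 9.49, 9.14, 9.08 and 9.22 (2.80-fold, log2 1.48, SE 0.13, limma adjusted p = 9.77e-06). The secreted BMP antagonist Grem1 went from 6.13, 6.11, 6.28 and 6.55 to 7.42, 7.30, 7.71 and 6.98 (2.12-fold, log2 1.09, SE 0.14, limma adjusted p = 0.000368). A ligand and an antagonist of the pathway were thus both higher in every treated rat. Fst, a follistatin that binds activins, was higher by 0.87. Its difference was 0.75 to 0.95 in the 8 fits without 1 array, but passed in none of them (adjusted p up to 0.140). The members that fell were the ligand Bmp6 (-0.47) and the inhibitory Smad gene Smad6 (-0.65), and Smad6 did not pass without normoxia replicate 1 or 4 or fulvestrant replicate 3 (adjusted p up to 0.0658). Bmpr2 read 13.05, 12.99, 13.001 and 12.96 in normoxia and 12.86, 12.80, 12.77 and 12.79 in the fulvestrant rats, and did not pass (log2 -0.20, limma adjusted p = 0.105). Its groups did not overlap, which also held for 12.3% of all genes. The target genes Id1 (0.04), Id2 (0.06) and Id3 (0.11) did not pass.

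Of 19 genes of transforming growth factor beta and activin signalling, 2 rose and 1 fell (15.8% past). Inhba, the activin A subunit, went from 6.92, 6.90, 7.16 and 7.27 to 7.93, 7.81, 7.98 and 7.81 (log2 0.82, SE 0.09, limma adjusted p = 0.000109). The ligand Tgfb3 rose by 0.63, and the co-receptor Tgfbr3 was lower (log2 -0.49), a call kept only where normoxia replicate 2 was left out (adjusted p up to 0.141). Among 15 Notch genes Dll4 fell and the ligand Jag2 rose by 0.69 (13.3% past). Jag2 lost its call without normoxia replicate 1 or 2 (adjusted p up to 0.0592). Among 23 Wnt genes, a list without Fzd8, 8.70% passed, against 2.96% of all genes. The secreted inhibitors Frzb and Dkk3 (0.58) rose and 0 fell.

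Genes of vessel tone were spread over both directions. In the angiotensin and kinin list 2 of 14 genes rose and 2 fell (28.6% past, against 2.96% of all genes). The kininogens Kng2 (1.51) and Kng1 (1.10), from which bradykinin is cut, rose, and Ace, which makes angiotensin II and degrades bradykinin, fell. Ace read 13.19, 13.03, 13.04 and 13.03 in normoxia and 12.70, 12.72, 12.72 and 12.75 in the fulvestrant rats (log2 -0.35, SE 0.06, limma adjusted p = 0.00167), a small difference with no overlap. Enpep, an aminopeptidase that cleaves angiotensin II, was lower (log2 -0.28, limma adjusted p = 0.0485) but passed in none of the 8 fits without 1 array (adjusted p up to 0.169). A second probe set of Kng1 gave 0.42 (limma adjusted p = 0.527). Whether the probes of the 2 kininogen genes share signal was not tested, so their rises may not be separate. In the prostanoid list (18 genes) 3 rose and Hpgd fell (22.2% past). The prostacyclin synthase gene Ptgis rose by 0.69, and its second probe set gave 0.36 (limma adjusted p = 0.0992). The prostaglandin E synthase gene Ptges was higher by 0.61, a call lost without fulvestrant replicate 2 or 3 or normoxia replicate 1 or 4 (adjusted p up to 0.0769). The thromboxane receptor gene Tbxa2r was higher by 0.41 and did not pass without fulvestrant replicate 2 or 4 or normoxia replicate 1 or 4 (up to 0.0676). In the serotonin list (11 genes) 18.2% passed. The transporter Slc6a4, which also carries serotonin into vascular muscle, fell from 9.87, 9.96, 10.14 and 10.01 to 9.24, 9.16, 8.86 and 9.16 (log2 -0.89, SE 0.12, limma adjusted p = 0.00047). The receptor gene Htr1b was higher by 0.53, a call lost without fulvestrant replicate 3 or 4 or normoxia replicate 1 or 2 (up to 0.0796).

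In the nitric oxide, cGMP and natriuretic peptide list (20 genes) 10.0% passed. Nos3, the endothelial nitric oxide synthase, was higher by 0.34 (limma adjusted p = 0.0263) and Npr3 was lower. Nos3 read 9.01, 8.88, 8.90 and 8.96 in normoxia and 9.32, 9.24, 9.26 and 9.28 in the fulvestrant rats, and passed only where normoxia replicate 1 was left out (adjusted p up to 0.0759). The vasoconstrictor gene Edn1 varied between rats: 11.34, 10.09, 10.60 and 10.29 in normoxia and 11.19, 11.59, 11.40 and 10.88 in the fulvestrant group (log2 0.68, SE 0.37, limma adjusted p = 0.413). Of 5 endothelin genes 0 passed. Of 13 vasodilator peptide genes Vipr1 and Vipr2 (-0.36) were lower (15.4% past). Vipr2 passed in none of the 8 fits without 1 array (adjusted p up to 0.121). Of 18 ion channel genes of vascular cells 3 rose (16.7% past, against 2.96% of all genes). They were Kcnmb1, the cation channel Trpc6 and the background potassium channel Kcnk3 (0.42). Trpc6 went from 8.33, 8.29, 8.36 and 8.44 to 9.11, 9.27, 9.19 and 8.95, and Kcnk3 lost its call without fulvestrant replicate 3 or 4 or normoxia replicate 1 (up to 0.0738).

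Of 25 angiogenic factors and receptors, 3 rose and 2 fell. The placental growth factor Pgf went from 8.30, 8.03, 7.97 and 8.08 to 9.12, 9.07, 9.32 and 8.91 (2.01-fold, log2 1.01, SE 0.09, limma adjusted p = 9.77e-06). The platelet-derived growth factor Pdgfd, a mitogen of vascular muscle, went from 8.82, 8.97, 8.56 and 9.12 to 10.16, 9.92, 9.91 and 9.56 (2.03-fold, log2 1.02, SE 0.16). Both were higher in every treated rat. The endothelial proteoglycan Esm1 was lower (log2 -0.77), a call kept only where fulvestrant replicate 1 or normoxia replicate 2 was left out (adjusted p up to 0.134).

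**Figure D3:**
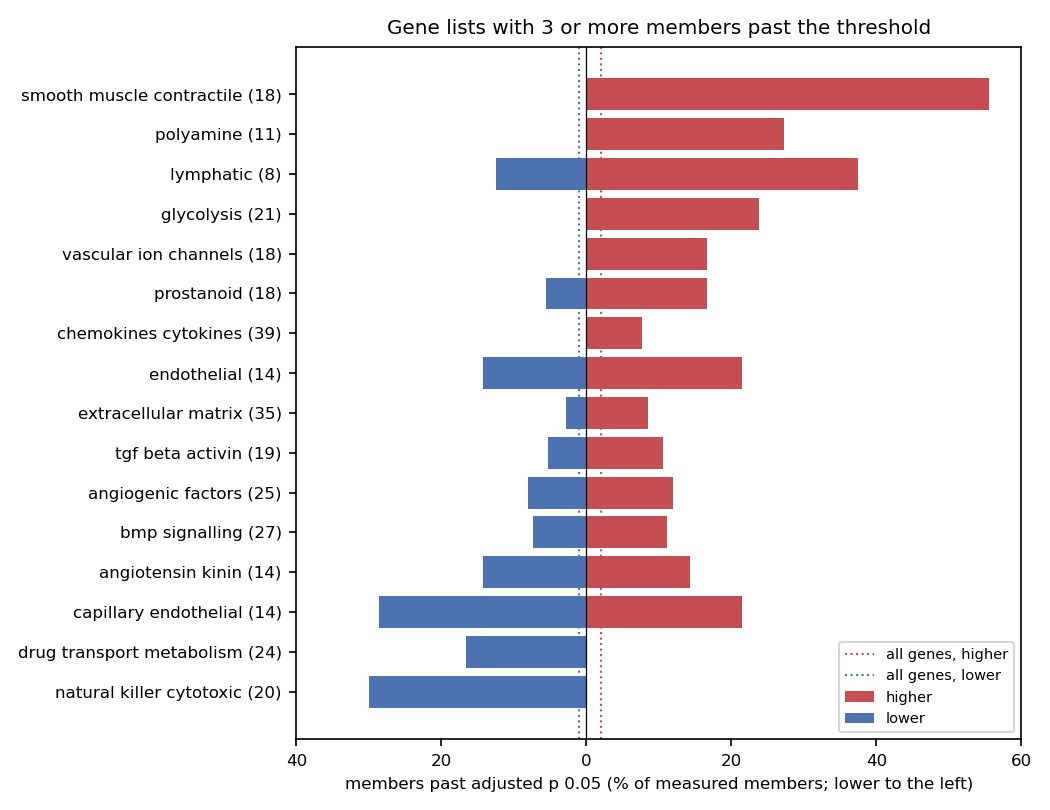
Share of the measured members of each gene list (number of members in parentheses) past an adjusted p of 0.05, in percent, higher to the right in red and lower to the left in blue, for the lists with 3 or more members past. Dotted lines give the share over all genes, 1.97% higher and 0.993% lower; smooth muscle contractile genes reach 55.6% higher and natural killer and cytotoxic genes 30.0% lower.

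The estrogen receptor genes themselves did not pass. Esr1 read 7.52, 7.88, 8.03 and 7.46 in normoxia and 7.51, 7.33, 7.46 and 7.31 in the fulvestrant rats (log2 -0.32, SE 0.13, limma adjusted p = 0.253). Esr2 was dim in both groups (6.51 ± 0.15 and 6.35 ± 0.08, SD, n = 4; limma adjusted p = 0.691), and Gper1 was at 8.46 ± 0.21 and 8.70 ± 0.14 (SD, n = 4; limma adjusted p = 0.297). The arrays measure RNA, so they do not show the breakdown of receptor protein that fulvestrant causes. Of 30 genes of estrogen reception, metabolism and response, Nos3 and Cyp1a1 passed (6.67%, against 2.96% of all genes). Both are also members of other lists. The progesterone receptor gene Pgr, a classical estrogen target, was 0.02 from normoxia. Of 8 genes of the aryl hydrocarbon receptor pathway Cyp1a1 and the quinone reductase Nqo1 (-0.47) were lower and Cyp1b1 (-0.45, limma adjusted p = 0.20) did not pass. Nqo1 kept its call only where fulvestrant replicate 2 or normoxia replicate 1 was left out (adjusted p up to 0.127).

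Of 24 genes of drug transport and metabolism 4 were lower and 0 higher (16.7% past, against 2.96% of all genes). They were the efflux pumps Abcb1b and Abcb1a (-1.01), the carboxylesterase Ces1d (-0.39) and the lung cytochrome P450 Cyp4b1 (-0.36). Abcb1a kept its call only where fulvestrant replicate 1 or normoxia replicate 2 was left out (adjusted p up to 0.0879) and Ces1d in none of the 8 fits (up to 0.0796). The 2 pumps are closely related genes whose probes may share signal.

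In the list of natural killer and cytotoxic cell markers 6 of 20 fell (30.0%), 0 rose and 14 did not pass, where 0.993% of all genes fell, and the median was -0.52. The granzyme gene Gzma went from 9.83, 9.88, 9.56 and 9.61 to 8.87, 8.98, 9.09 and 8.30 (log2 -0.91, SE 0.18, limma adjusted p = 0.0114), and the receptor gene Klri1 from 8.25, 8.25, 7.81 and 7.90 to 7.26, 7.39, 7.39 and 7.13 (log2 -0.76, SE 0.14, limma adjusted p = 0.0072). Gzmm was lower (log2 -0.68), a call lost without fulvestrant replicate 1 or 4 or normoxia replicate 1, 2 or 4 (adjusted p up to 0.142). The others, Klrd1 (-0.62), Klrc1 (-0.60) and Gzmb (-0.58), passed in 3, 2 and 2 of the 8 fits without 1 array. The mean of the list lay between -0.26 and 0.16 in the normoxia rats and between -0.74 and -0.30 in the treated rats. The count was 2 to 11 with 1 array left out, 2 without normoxia replicate 1, 2 or 4 or fulvestrant replicate 1 or 4 and 11 without normoxia replicate 3. It was 0 with normoxia replicate 4 taken as hypoxic and 11 without estradiol replicates 2 and 3.

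Of 23 T cell genes (median -0.17), 12 B cell genes (-0.23) and 8 plasma cell genes (-0.09), 0 passed. Of 19 alveolar macrophage genes 2 rose (10.5%, against 1.97% of all genes higher) and 17 did not pass. Those that rose were the oxidised lipoprotein receptor Olr1 (0.93) and the transcription factor Pparg (0.55), and the median of the list was 0.27. Of 21 genes of monocytes and interstitial macrophages the complement genes C1qc (0.54) and C1qb (0.52) rose (9.52%) and 19 did not pass. With normoxia replicate 4 taken as hypoxic these counts were 0 and 1. Of 21 neutrophil genes Cxcr1 (0.84) passed (4.76%, near the 2.96% of all genes), a call kept only where fulvestrant replicate 1 was left out (adjusted p up to 0.164). Of 14 mast cell and eosinophil genes Kit (-0.56), which capillary endothelium also expresses, was the 1 that passed (7.14%), and it fell. Of 39 chemokine and cytokine genes 3 rose (7.69% past, against 2.96% of all genes). Ccl2, which attracts monocytes, went from 9.40, 9.61, 9.88 and 9.65 to 10.81, 10.66, 11.08 and 11.09 (log2 1.27, SE 0.21, limma adjusted p = 0.00267). The others were Ccl21 and Cxcl12 (0.73). The cytokine receptor Osmr (0.80) was the 1 gene of 20 in the acute-phase list to pass, and 0 of 29 interferon-stimulated genes did (median -0.04).

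**Figure D4:**
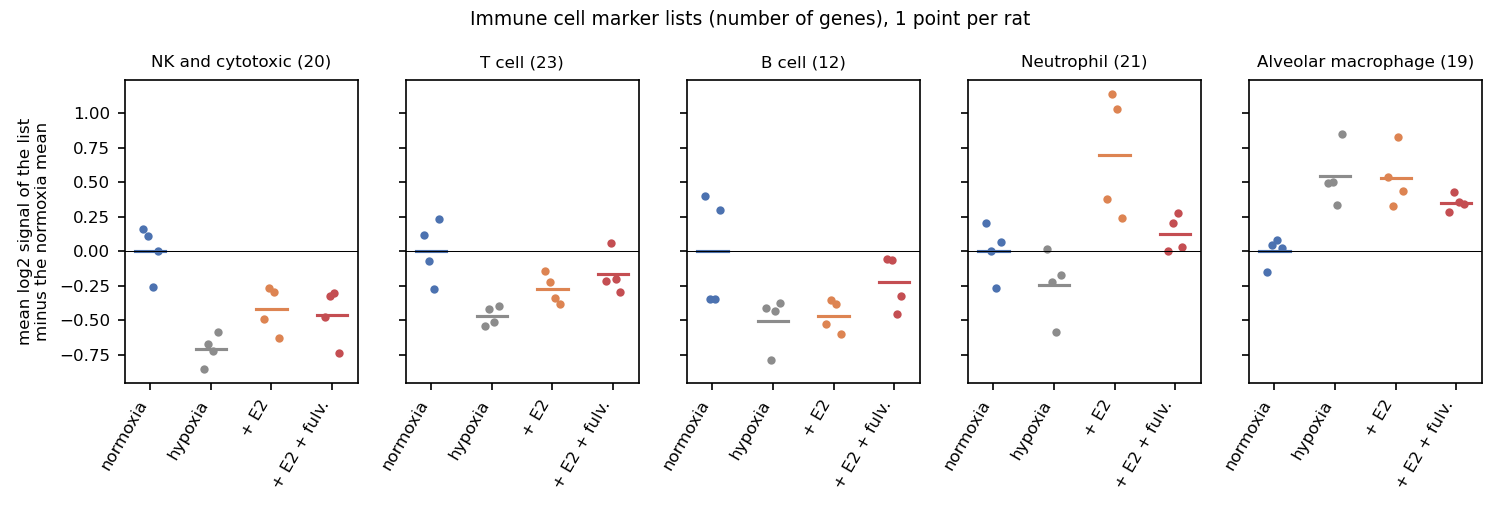
Mean log2 signal of 5 immune cell marker lists in each rat, minus the normoxia mean of the list, with bars at the group means, for normoxia, hypoxia, hypoxia with estradiol (+ E2) and hypoxia with estradiol and fulvestrant (+ E2 + fulv.). Natural killer and cytotoxic genes lie between -0.74 and -0.30 in the fulvestrant rats and alveolar macrophage genes between 0.28 and 0.43.

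Of 14 red cell genes 0 passed (median 0.47), and the mean of the list was between -0.13 and 0.16 in normoxia and between 0.36 and 1.32 in the fulvestrant group, highest in replicate 2. Hbb, a haemoglobin chain, read 11.81, 10.90, 11.53 and 11.51 in normoxia and 12.79, 13.43, 12.41 and 12.31 in the fulvestrant rats (log2 1.29, limma adjusted p = 0.176). The groups did not overlap, which also held for 12.3% of all genes, and the part of red cell RNA in the results was not tested. Of the epithelial lists, 0 of 14 alveolar type 2 genes and 0 of 15 airway genes passed. Of 15 alveolar type 1 genes 1 passed (6.67%, against 2.96% of all genes). It was Rtkn2 (-0.25), which passed in none of the 8 fits without 1 array (adjusted p up to 0.165).

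Of 34 genes of cell division 0 passed, with a median of 0.29 and 33 differences above 0. The mean of the list per array overlapped between the groups, at -0.17 to 0.19 in normoxia and 0.13 to 0.51 in the fulvestrant group. Polyamine genes rose in 3 of 11 cases (27.3% past, against 2.96% of all genes). They were Amd1, the spermidine synthase gene Srm (0.46) and Azin1 (0.30), which protects the first enzyme of the pathway. A second probe set of Srm gave -0.04 (limma adjusted p = 0.947), its call was lost without fulvestrant replicate 3 or normoxia replicate 1 (adjusted p up to 0.0571), and Azin1 kept its own only where fulvestrant replicate 1 or normoxia replicate 3 was left out (up to 0.136). Sgk1, a kinase induced by glucocorticoids, went from 11.43, 11.42, 11.61 and 11.39 to 12.43, 12.40, 12.45 and 12.33 (log2 0.94, SE 0.08, limma adjusted p = 9.77e-06). It was the 1 gene of 22 in the glucocorticoid list to pass (4.55%), and the median of that list was -0.04. Of 15 clock genes (median 0.05) and 28 immediate early genes (0.16) 0 passed. Single members passed in the lists of cholesterol synthesis (Stard4, -0.34), of antioxidants (Nqo1) and of lipid metabolism (Pparg), and 2 in that of the unfolded protein response (Manf, 0.26, and Pdia5). Stard4 and Manf passed in none of the 8 fits without 1 array (adjusted p up to 0.126 and 0.167).

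Whether the drugs altered what hypoxia alone does was read from the rats in hypoxia with estradiol and fulvestrant against those in hypoxia without drug. Across 14506 genes 0 passed (0%), with a smallest limma adjusted p of 0.127 and 1009 genes at an unadjusted p under 0.05. The median half-width of the 95% interval of a difference was 0.18, for 1 gene taken alone and without adjustment over all genes. Larger differences than that also did not pass, such as that of Grem1 (log2 -0.63, limma adjusted p = 0.449). Of the 430 genes that differed from normoxia, 397 had a 95% interval against hypoxia alone that stayed within 1.5-fold either way, but only 21 of the 42 that had differed at least 2-fold. These genes were chosen on the same fulvestrant arrays. The share over all genes was not computed, so the 397 is no result about these genes in particular. With only these 2 groups in the fit, 2 genes passed, Fcnb (1.21) and Plac8 (0.67), and with arrays weighted by quality Plac8 (0.69) and Scg2 (-0.40); these genes are named because the counts are small.

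Each hypoxic group's own difference from normoxia, which all use the same 4 normoxia rats, can be set side by side. In hypoxia alone 817 genes passed (5.63%) and in hypoxia with estradiol 756 (5.21%). Ntrk2 was 3.63 above normoxia in hypoxia, 3.63 with estradiol and 3.64 with fulvestrant as well, and the interval of the last against hypoxia alone ran from -0.34 to 0.35. Lyve1 was at -2.23, -2.10 and -2.14. Cyp1a1 was at -4.53, -3.34 and -3.87, with an interval against hypoxia alone from -0.57 to 1.89, too wide to place it. With estradiol alone it read 6.01, 7.04, 6.29 and 9.40, so 1 rat lay far above the other 3. Grem1 was at 1.71, 0.60 and 1.09. It read 7.90, 8.02, 8.09 and 7.90 in hypoxia, and the fulvestrant group (6.98 to 7.71) lay below all of these (log2 -0.63 against hypoxia, 95% interval -0.93 to -0.33, limma adjusted p = 0.449).

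**Figure D5:**
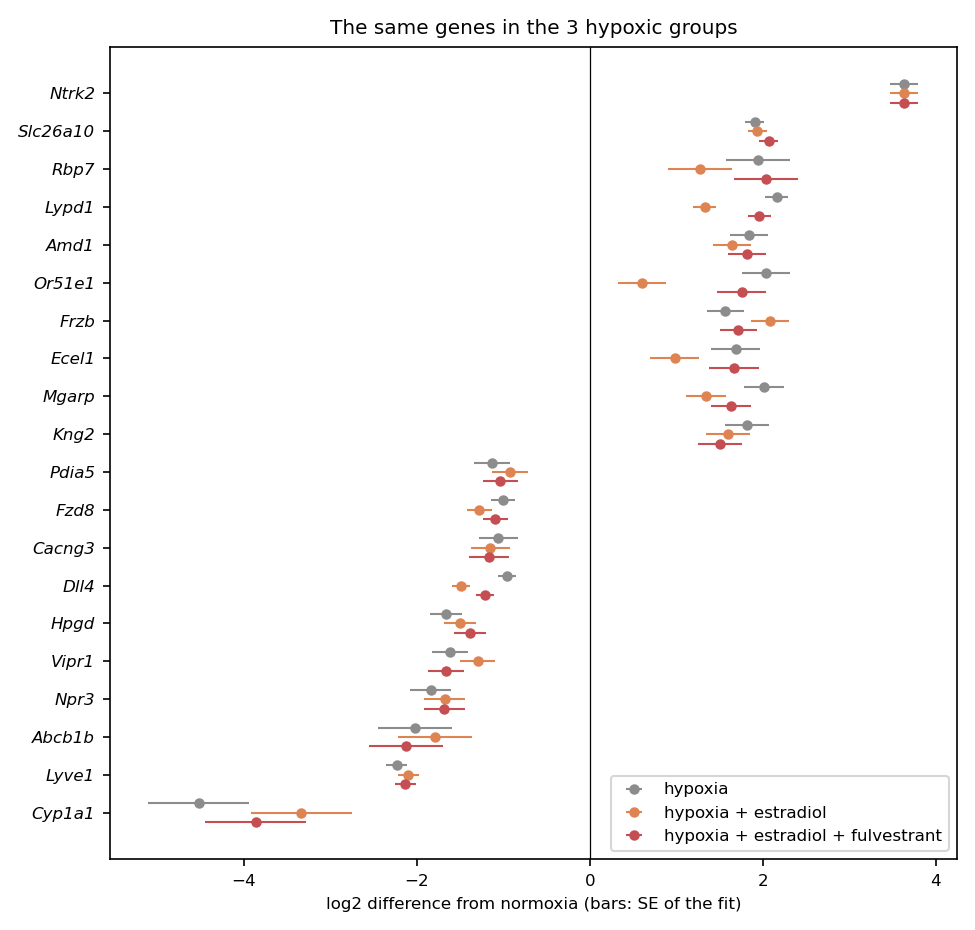
Difference from normoxia, on the log2 scale, of the same 20 genes in hypoxia (grey), hypoxia with estradiol (orange) and hypoxia with estradiol and fulvestrant (red), with bars of 1 SE of the fit; each group has 4 rats and all share the 4 normoxia rats. Ntrk2 is at 3.63, 3.63 and 3.64, and Or51e1 at 2.04, 0.60 and 1.75.

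For the contractile genes the list's median difference from normoxia was 0.28 in hypoxia, 0.24 with estradiol and 0.51 with fulvestrant as well. The mean of the list per array was 0.17 to 0.43, 0.10 to 0.30 and 0.38 to 0.67 in these groups. Against hypoxia alone the 10 genes that rose differed by 0.12 to 0.47, all above 0, and 7 had a 95% interval above 0, but 0 passed over all genes (limma adjusted p from 0.572 to 0.864). They had been picked for being high on the same fulvestrant arrays, which favours differences above 0. These counts are therefore no separate support. Among the 8 members not picked, Myocd (0.39), Myh11 (0.30) and Synm (0.29) also had intervals above 0. The intervals of Lmod1 (0.18), Pln (0.19), Tpm1 (0.16), Mylk (-0.06) and Ldb3 (-0.07) held 0. Actg2 differed most, by 0.47 (95% interval 0.14 to 0.81): it read 11.93, 11.53, 11.72 and 11.57 in hypoxia, where 1 rat overlapped the fulvestrant group. Against hypoxia with estradiol the 10 picked genes differed by 0.15 to 0.58 (limma adjusted p from 0.0586 to 0.538), with the same limit.

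Against hypoxia with estradiol but no fulvestrant, 7 genes passed (0.0483%), 3 higher (0.0207%) and 4 lower (0.0276%), with 2142 at an unadjusted p under 0.05. Of the recorded treatments this comparison differs in fulvestrant alone, and a batch cannot be told apart from it. Cx3cr1, the fractalkine receptor of patrolling monocytes and natural killer cells, read 9.13, 9.20, 9.15 and 9.53 with estradiol and 10.19, 9.97, 9.99 and 9.74 with fulvestrant as well (log2 0.72, SE 0.12, limma adjusted p = 0.0403). All fulvestrant rats were above all estradiol rats, and they were within 0.02 of normoxia on average. Mrc1, the mannose receptor of macrophages, read 11.63, 11.44, 11.78 and 11.33 with estradiol and 11.12, 10.93, 10.85 and 11.00 with fulvestrant (log2 -0.57, SE 0.09, limma adjusted p = 0.0403), and was 0.09 from normoxia. The motor protein gene Myo5b read 10.15, 10.02, 9.96 and 9.90 with estradiol and 9.55, 9.57, 9.52 and 9.54 with fulvestrant (log2 -0.46, SE 0.06, limma adjusted p = 0.0142). Septin4 (0.49) and Megf6 (-0.55) were 0.07 and -0.07 from normoxia. Myo5b with fulvestrant was below normoxia (log2 -0.21) and did not pass (limma adjusted p = 0.0775). Its groups did not overlap, which also held for 12.3% of all genes.

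Il17rb, a receptor for interleukin-25, and the kinase gene Prkx passed against both hypoxia with estradiol and normoxia. Il17rb was higher than normoxia by 0.30 (limma adjusted p = 0.0379) and than estradiol by 0.49, and Prkx lower than normoxia (log2 -0.26, limma adjusted p = 0.0198) and than estradiol (-0.36). Against normoxia Il17rb passed in none of the 8 fits without 1 array (adjusted p up to 0.114), and Prkx not without fulvestrant replicate 3 or 4 or normoxia replicate 4 (up to 0.0796). The count against estradiol rested on single arrays: it was 331 without estradiol replicate 4, 3 without replicate 1, 5 without replicate 2 and 1 without replicate 3. It was 0 without fulvestrant replicate 1 or 3, 2 without replicate 2 and 5 without replicate 4. Without estradiol replicates 2 and 3, which stood apart, it was 0. Among the genes with the largest differences from normoxia, Or51e1 (1.15, 95% interval 0.56 to 1.75, limma adjusted p = 0.0793) and Lypd1 (0.63, 0.34 to 0.92, limma adjusted p = 0.0638) were higher with fulvestrant than with estradiol alone, without passing. For neutrophil genes the list's median difference from normoxia was -0.45 in hypoxia, 0.74 with estradiol and 0.08 with fulvestrant as well, and for clock genes 0.12, 0.78 and 0.05. With estradiol, the mean of the neutrophil list was 1.14 and 1.03 in replicates 2 and 3, the arrays that stood apart, and 0.38 and 0.24 in replicates 1 and 4. That of the clock list was 0.66, 0.77 and 0.46 in replicates 1 to 3 and 0.04 in replicate 4. No test was made of these medians.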

How the data were processed

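RNA of whole lung was hybridised to Affymetrix rat gene arrays, 1 per rat. The deposited table holds log2 signals, which the authors made with RMA (background correction, normalization between arrays, summary of probes) and Partek, per the submitters' processing notes; versions, settings and genome build are not given in the sources used here. RMA aligns array distributions, so a change common to nearly all genes would be hidden, and it compresses dim signals. Arrays carry no count depth; 4 arrays per group limit the precision.

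Of 29214 probe sets 15310 had 1 gene symbol in the platform annotation, 323 several and 13581 none. The probe set with the highest mean stood for a gene (527 genes had several), leaving 14506 genes, 14480 of them in RefSeq. No dim genes were left out.

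limma 3.58.1 in R 4.3.3 fitted 4 group means over all 16 arrays (no trend); p-values were adjusted by the Benjamini-Hochberg method over 14506 genes, with a threshold of 0.05. The fit was tested on simulated data. Replicate numbers follow submission order and pair nothing. Named are the 10 highest and 10 lowest genes that passed without overlap (placeholder symbols skipped), up to 3 passing members per list by size, up to 6 per direction that passed against a second group too, and Esr1, Esr2, Gper1, Vegfa, Edn1, Bmpr2, Ntrk2, Cyp1a1, Grem1 and Lyve1. Other list members, Enpep, Bmp6, Smad6 and Tbxa2r among them, and sequences were picked as illustrations after their values were seen. The members, the 57 lists and the tests were chosen with earlier results of these data known. Alternatives were other scalings, probe set rules, samples and variance models, and each array left out.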

Additional observations from a re-analysis of the deposited data

Results flagged for a closer look

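Of 182 sets of 4 arrays checked for the named genes, 12 held 1 array farther from the rest than Dixon's test allows; chance alone gives about 1 in 20. In the fulvestrant group they were all replicate 2: Ntrk2 at 11.41 (the other 3 at 11.24), Ecel1 at 7.46 (8.46 to 8.58) and Kng1 at 10.39. In normoxia replicate 1 they were Rtkn2 (12.57), Kit (10.78), Fst (8.32) and Ace (13.19), in replicate 2 Fzd8 (10.31), Bnip3 (10.71) and Vipr2 (8.65), in replicate 3 Fbln2 (8.95) and in replicate 4 Amd1 (9.48).

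Outside the named genes, 129 probe sets with no single gene symbol passed against normoxia. Probe set 10857155 rose by 5.61 on the log2 scale (48.8-fold, SE 0.28, limma adjusted p = 4.75e-08), more than any named gene: it lay between 5.61 and 6.12 in normoxia and between 11.28 and 11.63 in the fulvestrant rats, and its mean was 10.88 in hypoxia and 10.78 with estradiol. Probe set 10761047 rose by 1.51, and probe sets 10821989 and 10788687 were lower (log2 -1.69 and -1.51).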

How the results depend on the processing

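Against normoxia the count of 430 stayed within 1.5 times under 8 other settings, from 422 (probe sets averaged) to 564 (without estradiol replicates 2 and 3, chosen after seeing the data). It was 786 with array weights, 100 with normoxia replicate 4 counted as hypoxia, 151 with a 1.5-fold minimum, and 238 to 374 with 1 of the 8 arrays left out. Of the 85 named genes that passed, 58 passed in all 8 such fits, 26 passed with normoxia replicate 4 counted as hypoxia, and 0 changed sign under any setting. Against hypoxia the count was 2 with only those groups or with array weights and 0 otherwise, leave-outs included. Against hypoxia with estradiol the count of 7 became 0 with only those groups, 21 with median centring, 33 with quantile normalization again, 28 without the dimmest genes, 1 over all probe sets, 44 with a trend and robust variance, 1 with a 1.5-fold minimum, 0 without estradiol replicates 2 and 3, and 0 to 331 with 1 array left out; the cause was not tested. The share of lower calls against normoxia was 144 of 430 as reported, 166 of 425 with median centring and 187 of 463 with quantile normalization. The median of all genes shifted from 0.0043 to -0.0144 and -0.0092. No paired analysis was possible because the labels give no replicate numbers shared between groups. Signals near the background of the arrays limit dim genes.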
